A study of Bos taurus with 9 samples.

Results

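Insulin and glucagon signaling was followed in the liver through 9 genes, chosen by symbol from the table of read counts: *INSR*, *IRS1*, *IRS2*, *PIK3R1*, *AKT2*, *FOXO1*, *GCGR*, *SLC2A2* and *PRKAA1*. All 9 were found among the 28786 genes listed, and all 9 had enough reads to be tested in every comparison. The samples were liver biopsies of lactating Holstein cows, 1 biopsy and 1 poly-A RNA-seq library per cow, with 3 cows in each of 3 groups and 9 libraries in all. Cows of the thermoneutrality (TN) group were kept at a comfortable temperature. Cows of the heat stress (HS) group were kept under a daily heat cycle, and cows of the pair-fed (PF) group were kept in thermoneutrality on a feed allowance matched to the intake of the HS cows. All cows had first been acclimated in thermoneutrality and were picked from a larger experiment, so each group stands for few animals, and HS differed from TN in both heat and intake. The labels name no genotype and no agent. Ages, the plasma levels of the hormones and the time of biopsy relative to feeding were not used here.

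Insulin binds its receptor tyrosine kinase, which phosphorylates the adaptors IRS1 and IRS2. These recruit PI3K, whose lipid product activates AKT, and in hepatocytes AKT2 excludes the transcription factor FOXO1 from the nucleus and so silences genes of glucose production. Glucagon acts in the opposite direction through its own receptor, cyclic AMP and protein kinase A. Cows absorb little glucose from the gut, and the liver of a lactating cow makes most of the glucose for milk lactose, so both hormones bear on a tissue that exports glucose almost without pause. Much of this signaling runs on phosphorylation and location of proteins, which read counts do not show.

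None of the 9 genes passed the thresholds of the study between any pair of groups. A differentially expressed gene (DEG) had an FDR under 0.1, adjusted over all genes tested, and a fold change over 1.5 in the edgeR quasi-likelihood test of the 6 libraries of a pair. In HS vs. TN, 0 of 9 members were DEGs, against 0.0892% of all genes tested (13 of 14582). In HS vs. PF, 0 of 9 were DEGs, against 0.0276% (4 of 14510). In PF vs. TN, 0 of 9 were DEGs, against 0% (0 of 14580, with a smallest FDR of 0.148 and 1003 genes at an unadjusted p under 0.05). With so few DEGs among all genes, 0 calls among 9 members lies near the background. DESeq2, the tool of the study, also called 0 of 9 members in each pair, while it called 1.32% of all genes in HS vs. TN, 0.596% in HS vs. PF and 0.449% in PF vs. TN. The values below therefore describe levels, the spread between cows, and the size of change that the data still allow.

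The libraries held 16874444 to 22557047 counts on genes, and where 0 reads were counted the limit, set at 3 reads, was 0.111 to 0.202 CPM. CPM are read counts scaled to a common library size, here with TMM over the 9 libraries, and the lowest count of any member in any cow was 114 reads. Hepatocyte markers (10 of 10 with counts, such as *ALB* and *APOB*) summed to 18799 CPM in TN replicate 1 against 61627 to 132546 CPM in the other 8 cows, and HS replicate 1 was the second lowest at 61627 CPM. They were higher in every PF cow (90248 to 123680 CPM) than in every TN cow (18799 to 82481 CPM). Of the macrophage markers 7 of 8 were in the file and had counts, and their sum was higher in every HS cow (1342 to 2115 CPM) than in every PF cow (888 to 1222 CPM). Lymphocyte markers (6 of 6 with counts) summed to 94.3 to 117 CPM in TN and 75.6 to 89.6 CPM in HS cows, and red blood cell markers (5 of 5) to 4.08 to 23.1 CPM in TN, 0.592 to 3.06 CPM in PF and 0.875 to 2.51 CPM in HS cows. Sums of endothelial, stellate cell and cholangiocyte markers overlapped between all groups. The 13 mitochondrial protein-coding genes took 13.6 to 22.2% of counts in TN, 6.90 to 7.79% in PF and 3.84 to 5.68% in HS cows. The part of these differences in the levels below was not tested, and in a bulk biopsy fewer cells of a type and less RNA per cell cannot be told apart.

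The hormones themselves are made in the pancreas. *GCG*, which encodes glucagon, had 0 reads in all 9 libraries, which limits its level to 0.111 to 0.202 CPM, depending on the library. *INS*, which encodes insulin, had 0, 2 and 1 reads in the TN cows, 0, 7 and 7 in the PF cows, and 0, 13 and 4 in the HS cows. Neither passed the filter on low counts in any comparison. The other pancreatic markers *SST*, *CPA1*, *CELA2A* and *PNLIP* had 0 reads in all libraries.

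*INSR*, the insulin receptor, was measured at 49.0, 55.8 and 47.4 CPM in TN replicates 1, 2 and 3. It was at 57.4, 69.2 and 84.1 CPM in the PF cows and at 59.8, 89.3 and 59.4 CPM in the HS cows. Thus every TN cow lay below every PF and every HS cow, although TN replicate 2 and PF replicate 1 were separated by very little. For *INSR* the log2 fold change was 0.44 (SE 0.24, edgeR FDR = 0.573) in HS vs. TN and 0.47 (SE 0.26, FDR = 0.709) in PF vs. TN. HS and PF overlapped, with a log2 fold change of -0.02 (95% interval -0.58 to 0.55). The separation from TN was seen with TMM and with RLE size factors. With counts divided by library totals, with or without mitochondrial genes, the groups overlapped in both comparisons. *INSR* and *IRS1* each share their position with 1 other gene in the RefSeq annotation of a later assembly, and whether reads were shared there was not tested.

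*IRS1*, the first of the insulin receptor adaptors, was at 21.7, 43.1 and 40.0 CPM in TN, at 43.3, 45.8 and 40.0 CPM in PF, and at 40.3, 44.4 and 63.7 CPM in HS cows. All cows but TN replicate 1 and HS replicate 3 lay between 40.0 and 45.8 CPM, and these 2 cows set the difference between the means. HS vs. TN gave a log2 fold change of 0.49 (SE 0.30, FDR = 0.592), which was 0.25 without TN replicate 1 and 0.27 without HS replicate 3. PF vs. TN gave 0.30 (SE 0.28, FDR = 0.786), and 0.06 without TN replicate 1, and HS vs. PF gave 0.20 (SE 0.23, FDR = 1.00), and -0.02 without HS replicate 3.

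*IRS2*, the adaptor most closely tied to fasting in the liver of rodents, varied more between cows than any other member. It was at 5.10, 26.5 and 22.6 CPM in TN, at 21.9, 24.4 and 34.4 CPM in PF, and at 20.0, 27.5 and 21.4 CPM in HS cows. The highest cow was 6.74-fold above the lowest, and the coefficient of variation (CV) was 63.1% in TN against 24.6% in PF and 17.5% in HS. TN replicate 1, with 114 reads, stood alone, and the other 8 cows lay between 20.0 and 34.4 CPM. HS vs. TN gave a log2 fold change of 0.34 (SE 0.47, FDR = 0.815), and it turned to -0.10 without TN replicate 1. For PF vs. TN it was 0.58 (SE 0.47, FDR = 0.760), 0.14 without TN replicate 1 and 0.97 without TN replicate 2. In HS vs. PF, where that cow does not enter, it was -0.23 (95% interval -0.78 to 0.31, FDR = 1.00).

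**Figure D1:**
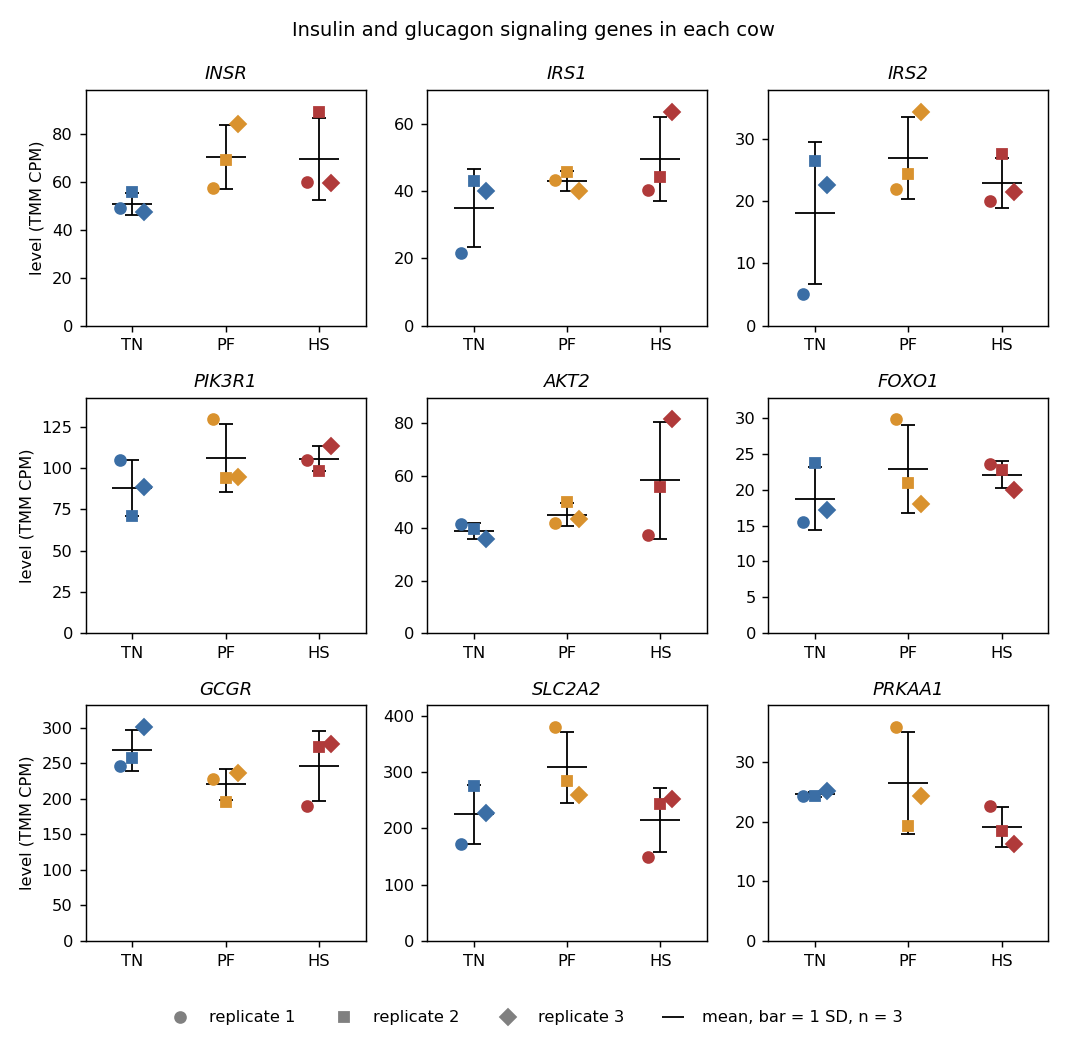
Level of each of the 9 genes (TMM-normalized CPM, a linear axis from 0 in each panel) in the 3 TN, 3 PF and 3 HS cows, with a point per cow (its shape gives the replicate) and a bar at the mean with its SD. *INSR* in the TN cows (47.4 to 55.8 CPM) lies below the other 6 cows, and *IRS2* in TN replicate 1 (5.10 CPM) stands apart from the other 8 cows.

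*PIK3R1*, the regulatory subunit that holds PI3K in check and docks it on the adaptors, was at 105, 71.0 and 88.3 CPM in TN. It was at 129.6, 94.3 and 94.4 CPM in PF and at 105, 98.3 and 114 CPM in HS cows. The 3 groups overlapped, and the rounded means of PF and HS were both 106 CPM (SD 20.3 and 7.68, n = 3). Its log2 fold change was 0.24 (SE 0.25, FDR = 0.743) in HS vs. TN, 0.27 (SE 0.29, FDR = 0.810) in PF vs. TN and -0.01 (95% interval -0.53 to 0.51) in HS vs. PF.

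*AKT2*, the AKT kinase that carries most of the insulin signal to glucose metabolism in hepatocytes, was at 41.7, 39.8 and 35.8 CPM in TN and at 42.0, 50.1 and 43.5 CPM in PF cows. In HS cows it was at 37.3, 55.9 and 81.6 CPM, the widest spread of any HS group among the 9 genes (CV 38.2%). The HS cows thus included a cow at the level of TN and the highest cow of all. The log2 fold change in HS vs. TN, 0.56 (SE 0.29, FDR = 0.557), was the largest of the 9 genes in that comparison. It was 0.24 without HS replicate 3 and 0.80 without HS replicate 1, neither a DEG. HS vs. PF gave 0.36 (SE 0.28, FDR = 1.00), and 0.04 without HS replicate 3. PF vs. TN gave 0.21 (SE 0.23, FDR = 0.817), with every PF cow above every TN cow by a small margin, a separation not seen with RLE size factors or with library totals.

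*FOXO1*, the transcription factor that AKT keeps out of the nucleus, was at 15.4, 23.7 and 17.2 CPM in TN, at 29.8, 20.9 and 18.0 CPM in PF, and at 23.6, 22.7 and 20.0 CPM in HS cows. The groups overlapped in all comparisons, and the HS cows were the closest to each other (CV 8.56%, against 23.3% in TN and 26.8% in PF). Its log2 fold change was 0.22 (SE 0.23, FDR = 0.742) in HS vs. TN, 0.29 (SE 0.28, FDR = 0.795) in PF vs. TN and -0.06 (95% interval -0.59 to 0.48) in HS vs. PF.

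*GCGR*, the glucagon receptor, varied least across the 9 cows, with 1.59-fold between the highest and the lowest. It was at 247, 257 and 301 CPM in TN, at 229, 196 and 236 CPM in PF, and at 190.2, 273 and 277 CPM in HS cows. Every PF cow lay below every TN cow under all 4 scalings tried, and HS replicate 1 was the lowest of all while the other HS cows lay within the TN range. Its log2 fold change was -0.29 (SE 0.29, FDR = 0.800) in PF vs. TN, -0.14 (SE 0.29, FDR = 0.885) in HS vs. TN and 0.16 (SE 0.26, FDR = 1.00) in HS vs. PF. Without HS replicate 1 the value in HS vs. TN was 0.02.

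*SLC2A2* encodes GLUT2, the transporter through which glucose crosses the hepatocyte membrane in both directions. It was at 171, 275 and 228 CPM in TN, at 381, 285 and 259.8 CPM in PF, and at 150.0, 243 and 252 CPM in HS cows. Every HS cow lay below every PF cow under all 4 scalings tried, and this was the largest difference of the 9 genes between those groups, with a log2 fold change of -0.53 (SE 0.29, 95% interval -1.17 to 0.12, FDR = 0.985). It ranged from -0.65 to -0.33 as each cow was left out. The log2 fold change was 0.45 (SE 0.33, FDR = 0.740) in PF vs. TN and -0.08 (SE 0.32, FDR = 0.942) in HS vs. TN. The 2 lowest cows, HS replicate 1 and TN replicate 1, were also the 2 with the lowest sums of hepatocyte markers, and the highest cow, PF replicate 1, had a sum of 123680 CPM. HS replicate 3, however, had the highest hepatocyte sum of all (132546 CPM) with *SLC2A2* at 252 CPM, below every PF cow and below TN replicate 2 (275 CPM, with a sum of 82481 CPM). The part of hepatocyte content in these levels was not tested.

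*PRKAA1*, the alpha 1 catalytic subunit of the energy sensor AMPK, was at 24.3, 24.3 and 25.1 CPM in TN, the closest agreement of any group of cows for any member (CV 1.88%, from 544, 393 and 421 reads). It was at 35.9, 19.2 and 24.2 CPM in PF and at 22.7, 18.4 and 16.2 CPM in HS cows. Every HS cow lay below every TN cow, with TMM and with RLE size factors but not with either kind of library total. The log2 fold change in HS vs. TN was -0.38 (SE 0.21, 95% interval -0.84 to 0.09, FDR = 0.574) and ranged from -0.52 to -0.27 as each cow was left out. HS vs. PF gave -0.47 (SE 0.27, FDR = 0.991), and -0.18 without PF replicate 1. PF vs. TN gave 0.10 (SE 0.27, FDR = 0.930), and it turned to -0.18 without PF replicate 1.

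**Figure D2:**
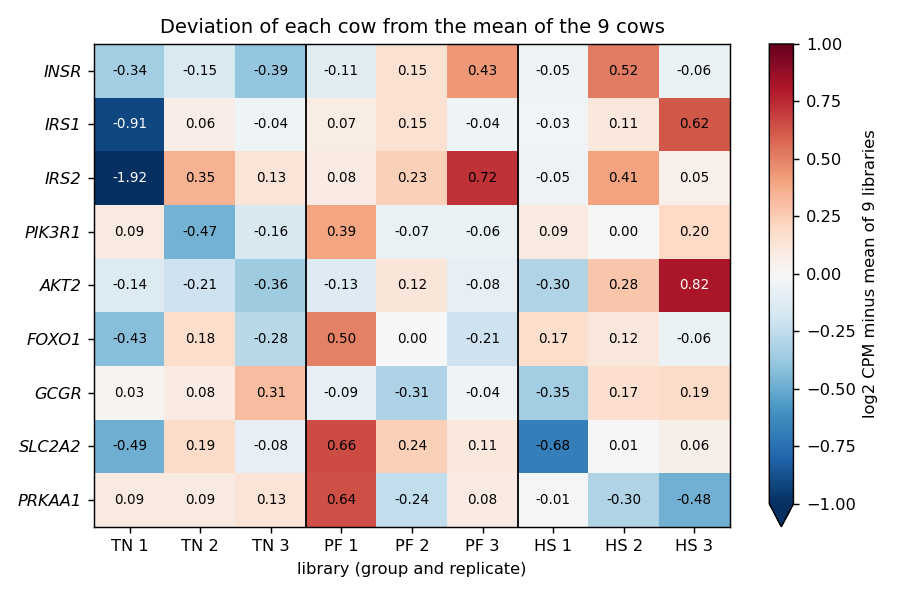
Deviation of each gene in each cow from the gene's own mean over the 9 cows (log2 CPM with an offset of 0.5), with genes in rows and cows in columns. The largest single deviation is *IRS2* in TN replicate 1 (-1.92), followed by *IRS1* in the same cow (-0.91) and *AKT2* in HS replicate 3 (0.82).

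Deviations from the mean of the 9 cows were taken cow by cow, and none was computed for a whole group. TN replicate 1 was the lowest of the 9 cows for *IRS1*, *IRS2* and *FOXO1*, and its median deviation over the 9 genes was -0.34 on the log2 scale, against -0.08 to 0.12 in the other 8 cows. PF replicate 1 was the highest cow for 4 genes, *PIK3R1*, *FOXO1*, *SLC2A2* and *PRKAA1*. HS replicate 3 was the highest for *IRS1* and *AKT2* and the lowest for *PRKAA1*. In HS replicate 1, *SLC2A2* lay 0.68 below its mean on the log2 scale. TN replicate 1 and HS replicate 1 also had the TMM factors farthest above 1 (1.33 in TN replicate 1, against 0.869 to 1.01 in the other 7 cows). Whether this touches the levels was not tested.

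Over the 3 comparisons the 9 genes gave 27 log2 fold changes, of which 0 had an unadjusted p under 0.05 and 0 exceeded 1.5-fold. In HS vs. TN the share of all genes with an unadjusted p under 0.05 was 4.13% in the direction of higher in HS and 5.23% in the direction of lower. In HS vs. PF these shares were 3.07% and 2.25%, and in PF vs. TN they were 2.99% and 3.89%. A change over 1.5-fold was found for 22.9%, 16.1% and 22.8% of all genes in HS vs. TN, HS vs. PF and PF vs. TN. For 19 of the 27 values the 95% interval lay within a 2-fold change in either direction (6 of 9, 7 of 9 and 6 of 9 in the same order, against 44.4%, 54.0% and 40.0% of all genes). For these a change of 2-fold or more is outside the interval, and for the other 8, among them *IRS2* against TN in both comparisons, it is not.

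Groups did not overlap in 6 of the 27. In HS vs. TN these were *INSR*, higher in HS (1 of 9, against 8.37% of all genes), and *PRKAA1*, lower in HS (1 of 9, against 7.7%). In HS vs. PF it was *SLC2A2*, lower in HS (1 of 9, against 4.58%), while 0 of 9 were higher (5.95% of all genes). In PF vs. TN these were *INSR* and *AKT2*, higher in PF (2 of 9, against 6.81%), and *GCGR*, lower in PF (1 of 9, against 6.36%). Of 9 genes a single gene makes 11.1%, so counts of 1 do not stand apart from these shares, and of the 2 genes higher in PF the separation of *AKT2* was lost with every other scaling. With library totals that left out mitochondrial genes, *GCGR* and *SLC2A2* were instead the genes lower in every HS than in every TN cow.

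The median log2 fold change of the 9 genes was 0.24 in HS vs. TN, -0.02 in HS vs. PF and 0.29 in PF vs. TN, beside -0.01, 0.01 and -0.01 over all genes. Of the 9, 6 had a higher mean in HS than TN, 3 in HS than PF, and 8 in PF than TN, where the shares of all genes were 49.3%, 50.9% and 48.8%. HS vs. TN and PF vs. TN share the TN cows, so the 2 medians are not independent. Dividing by library totals alone moved the median of all genes in PF vs. TN to -0.17. With mitochondrial genes left out of those totals it was -0.30 in HS vs. TN and -0.36 in PF vs. TN, and only 4 of 9 members were then higher in either. The median of the members minus that of all genes, which a scaling hardly moves by construction, was 0.25 in HS vs. TN and 0.30 in PF vs. TN, and TN replicate 1, the cow with the lowest members, enters both.

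**Figure D3:**
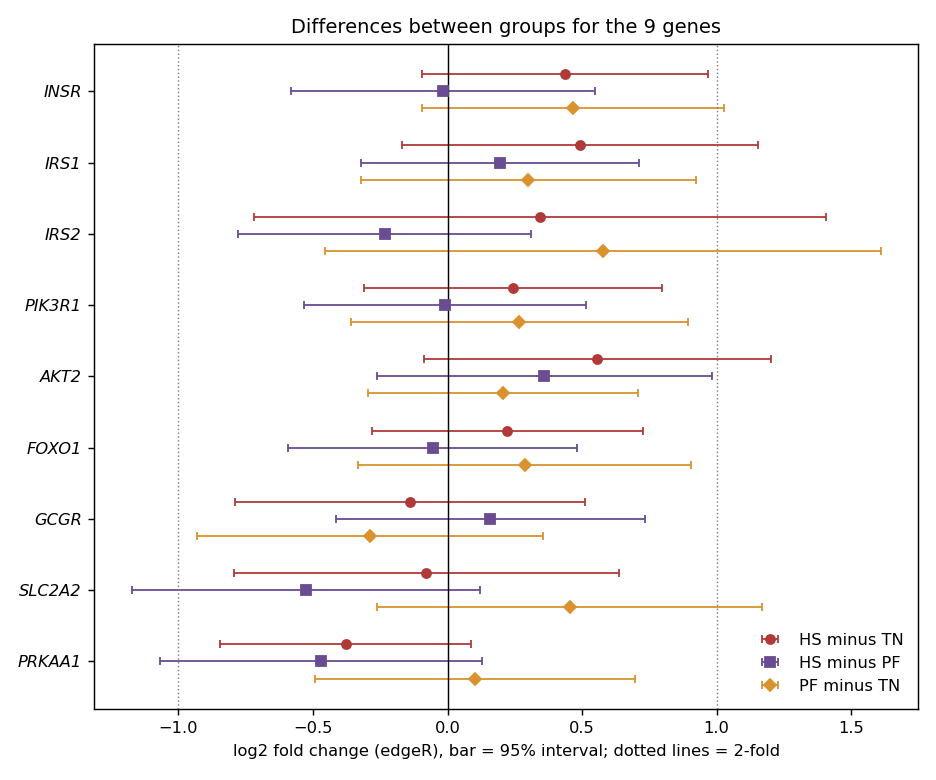
Log2 fold change of each gene in HS vs. TN, HS vs. PF and PF vs. TN (points, edgeR) with 95% intervals (lines) and a vertical line at no change. All 27 intervals include 0, among them those of *INSR* in PF vs. TN (-0.09 to 1.03) and *SLC2A2* in HS vs. PF (-1.17 to 0.12), and dotted lines mark a 2-fold change.

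Ratios of a pair of genes within a library do not depend on the scaling of the library. In units of reads, the ratio of *GCGR* to *INSR* was 5.04, 4.61 and 6.36 in TN cows, 3.99, 2.83 and 2.81 in PF cows, and 3.18, 3.05 and 4.66 in HS cows. Each TN cow thus had more glucagon receptor reads per insulin receptor read than any PF cow, and HS overlapped with TN through HS replicate 3 alone. With TMM every PF cow was higher for *INSR* and lower for *GCGR* than every TN cow. The separation of the ratio in PF vs. TN, and its exact p, were fixed by those levels and add no support. The log2 ratio was 2.40 ± 0.24 in TN, 1.66 ± 0.29 in PF and 1.83 ± 0.34 in HS (SD, n = 3). The difference was -0.74 in PF vs. TN (exact two-sided permutation test, p = 0.1, the smallest that 3 cows against 3 can give) and -0.57 in HS vs. TN (exact permutation p = 0.2). Over the 12 such tests no value passed adjustment (smallest Benjamini-Hochberg adjusted exact p = 0.48).

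The ratio of *AKT2* to *AKT1*, the AKT gene of wider tissue range, was on the log2 scale -0.80 ± 0.11 in TN, -0.47 ± 0.10 in PF and -0.51 ± 0.72 in HS (SD, n = 3). It was higher in every PF than in every TN cow, with a difference of 0.32 (exact permutation p = 0.1). In HS cows the ratio of reads was 0.406, 0.804 and 1.07, so the HS group held both the lowest and the highest ratio of the 9 cows. *IRS2* to *IRS1* had log2 ratios of -1.20 ± 0.77 in TN, -0.70 ± 0.42 in PF and -1.09 ± 0.45 in HS, with overlap in all comparisons. *PRKAA1* to *PRKAA2*, the alpha 2 subunit of AMPK, had log2 ratios of -1.09 ± 0.20, -0.92 ± 0.12 and -1.28 ± 0.26, also with overlap. Differences in gene length enter each ratio but are the same in all cows.

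**Figure D4:**
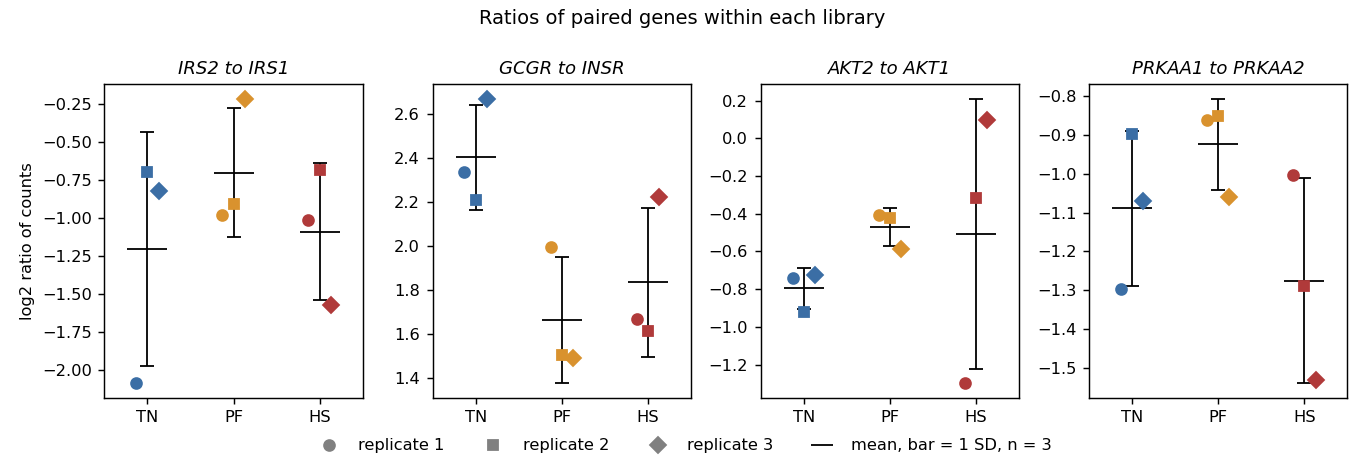
Log2 ratios of reads within each library for *IRS2* to *IRS1*, *GCGR* to *INSR*, *AKT2* to *AKT1* and *PRKAA1* to *PRKAA2* in TN, PF and HS cows, with a point per cow (its shape gives the replicate) and a bar at the mean with its SD. For *GCGR* to *INSR* the 3 TN cows (linear ratio 4.61 to 6.36) lie above all PF cows (2.81 to 3.99).

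The wider pathway was taken as 129 genes in lists by role, of which 128 were in the file and 119 were not members. Of the 128, 122, 121 and 122 were tested in HS vs. TN, HS vs. PF and PF vs. TN, and 0 were DEGs in any, by edgeR or DESeq2. The unadjusted p was under 0.05 for 4 higher and 7 lower genes in HS vs. TN (3.28% and 5.74%, against 4.13% and 5.23% of all genes). In HS vs. PF 1 was higher and 3 were lower (0.826% and 2.48%, against 3.07% and 2.25%). In PF vs. TN 1 was higher and 3 were lower (0.820% and 2.46%, against 2.99% and 3.89%). These shares lay near or below those of all genes. The median log2 fold change of the lists together was -0.05, 0.01 and -0.08 in the same order, close to that of all genes. For genes of the lists that are not members, overlap between groups was examined with TMM alone and may depend on the scaling.

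Among receptor adaptors and their inhibitors, 0 of 16 tested genes were DEGs in each comparison. *GRB14*, an inhibitor that binds the active insulin receptor, was at 121, 77.3 and 90.1 CPM in TN, at 51.9, 60.5 and 55.4 CPM in PF and at 65.8, 99.8 and 63.0 CPM in HS cows. All PF cows lay below all TN cows (log2 fold change -0.79, SE 0.27, FDR = 0.697). *SH2B2*, an adaptor of the receptor, had a log2 fold change of 0.84 in HS vs. PF (SE 0.41, FDR = 0.949), with overlapping groups.

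Of the 11 genes of PI3K and the lipid phosphatases, the smallest p in HS vs. TN belonged to *INPP5K*, which encodes a phosphatase of the PI3K lipid product. It was at 60.8, 46.8 and 47.7 CPM in TN and at 32.2, 37.2 and 27.5 CPM in HS cows, without overlap (log2 fold change -0.70, SE 0.22, FDR = 0.428). The PF cows, at 35.2, 40.1 and 41.1 CPM, lay below the TN cows and overlapped with the HS cows. *PIK3IP1*, which encodes an inhibitor of PI3K, was at 19.9, 17.2 and 15.2 CPM in PF and at 13.1, 7.31 and 12.1 CPM in HS cows (log2 fold change -0.69, SE 0.28, FDR = 0.851, no overlap). The HS cows also lay below the TN cows, at 20.5, 15.7 and 14.8 CPM (log2 fold change -0.67, SE 0.28, FDR = 0.512). PF vs. TN gave 0.03 for this gene.

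Of the 19 genes of AKT, its regulators and mTOR, *RHEB*, the small GTPase that activates mTOR complex 1, had a log2 fold change of 0.65 in PF vs. TN (SE 0.30, FDR = 0.708, overlap). For *RHEB* it was 0.73 in HS vs. TN (SE 0.32, FDR = 0.518, overlap) and 0.09 in HS vs. PF, so the value was not particular to PF. Of the 12 genes of AKT and mTOR targets, *EIF4EBP1*, a repressor of translation that mTOR inactivates, was at 16.1, 37.9 and 32.3 CPM in TN and at 51.3, 46.1 and 73.2 CPM in HS cows. The groups did not overlap (log2 fold change 0.97, SE 0.32, FDR = 0.456). PF cows, at 26.9, 64.4 and 39.8 CPM, overlapped with both.

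Of the 29 tested genes of glucagon receptor and cAMP signaling, *SIK2* and *SIK1* encode salt-inducible kinases that protein kinase A inhibits. *SIK1* was at 7.75, 10.8 and 9.17 CPM in PF and at 24.7, 13.1 and 16.3 CPM in HS cows, without overlap (log2 fold change 0.96, SE 0.29, FDR = 0.625). The TN cows, at 12.8, 14.6 and 12.5 CPM, also lay above every PF cow. They overlapped with the HS cows (log2 fold change 0.43 in HS vs. TN, SE 0.27, FDR = 0.608). *SIK2* had a log2 fold change of 0.53 in HS vs. TN (SE 0.19, FDR = 0.473, no overlap). *PDE8A*, a phosphodiesterase that breaks down cyclic AMP, had -0.57 in HS vs. TN (SE 0.21, FDR = 0.471, no overlap), and *PRKAR1B*, a regulatory subunit of protein kinase A, had -0.61 in HS vs. PF (SE 0.28, FDR = 0.936, overlap). *SIK2*, *PDE8A* and *PRKAR1B* share their positions with other genes in the RefSeq annotation of a later assembly, and reads of such genes may have been split.

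Of the 10 tested genes of AMPK subunits and kinases, 2 had a higher and 8 a lower mean in HS than in TN (49.3% of all genes were higher) with a median log2 fold change of -0.22 and 0 DEGs. In 3 of them, *PRKAA1*, *PRKAB2* and *PRKAG2*, the HS cows were lower without overlap (all genes 7.7%), although for *PRKAA1* this was lost with both kinds of library total. For *PRKAB2* and *PRKAG2* overlap was examined with TMM alone, so their separation may depend on the scaling as well. *PRKAB2* was separated by very little, 30.76 CPM in HS replicate 2 against 30.82 CPM in TN replicate 2 (log2 fold change -0.22, SE 0.20, FDR = 0.715). Over the lists together 9.84% of tested genes were lower in HS than in TN without overlap, and the AMPK list had the lowest median. *PRKAG2*, the gamma 2 subunit, was at 34.1, 25.0 and 32.4 CPM in TN and at 21.6, 24.1 and 18.1 CPM in HS cows (log2 fold change -0.54, SE 0.22, FDR = 0.504, no overlap). *STRADA*, a pseudokinase that activates the AMPK kinase LKB1, had -0.77 in PF vs. TN (SE 0.33, FDR = 0.708, overlap). *PRKAA2* lay at 45.5, 45.1 and 47.0 CPM in HS, within the range of the TN cows (45.3 to 59.9 CPM) but for 1 cow. Of the glucose transporters and glucokinase genes, 12, 11 and 12 were tested in HS vs. TN, HS vs. PF and PF vs. TN, and 0 had an unadjusted p under 0.05 in any. In HS vs. TN 3 of these had a higher and 9 a lower mean, and of the glucagon receptor and cAMP genes 11 and 18. Of the genes of AKT, its regulators and mTOR 13 were higher and 6 lower.

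Of the 13 tested transcripts that insulin, FOXO1 or glucagon regulate, *SREBF1* and *FGF21* are described for their p-values in PF vs. TN or HS vs. PF. *SREBF1*, the lipogenic transcription factor that insulin induces, was at 150.0, 78.6 and 145 CPM in TN and at 51.4, 90.0 and 35.7 CPM in PF cows (log2 fold change -1.08, SE 0.39, FDR = 0.697, overlap), and it shares its position with 2 other genes in that later annotation. *FGF21*, the hepatic hormone of fasting, had 0, 3 and 54 reads in TN, 24, 510 and 201 in PF, and 26, 44 and 0 in HS cows. The PF cows thus held the highest values but also overlapped with the others. The log2 fold change was 3.59 in PF vs. TN (SE 1.22, FDR = 0.697) and -3.49 in HS vs. PF (SE 1.06, FDR = 0.625). Without the filter on low counts, edgeR called *FGF21* in both (FDR = 0.00300 and 0.0133), and DESeq2 did in neither (FDR = 0.686 and 0.844). This is the only gene of the lists whose call depended on the setting. Leaving out 1 cow moved it between 2.38 and 7.27 in PF vs. TN and between -4.60 and -2.30 in HS vs. PF.

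**Figure D5:**
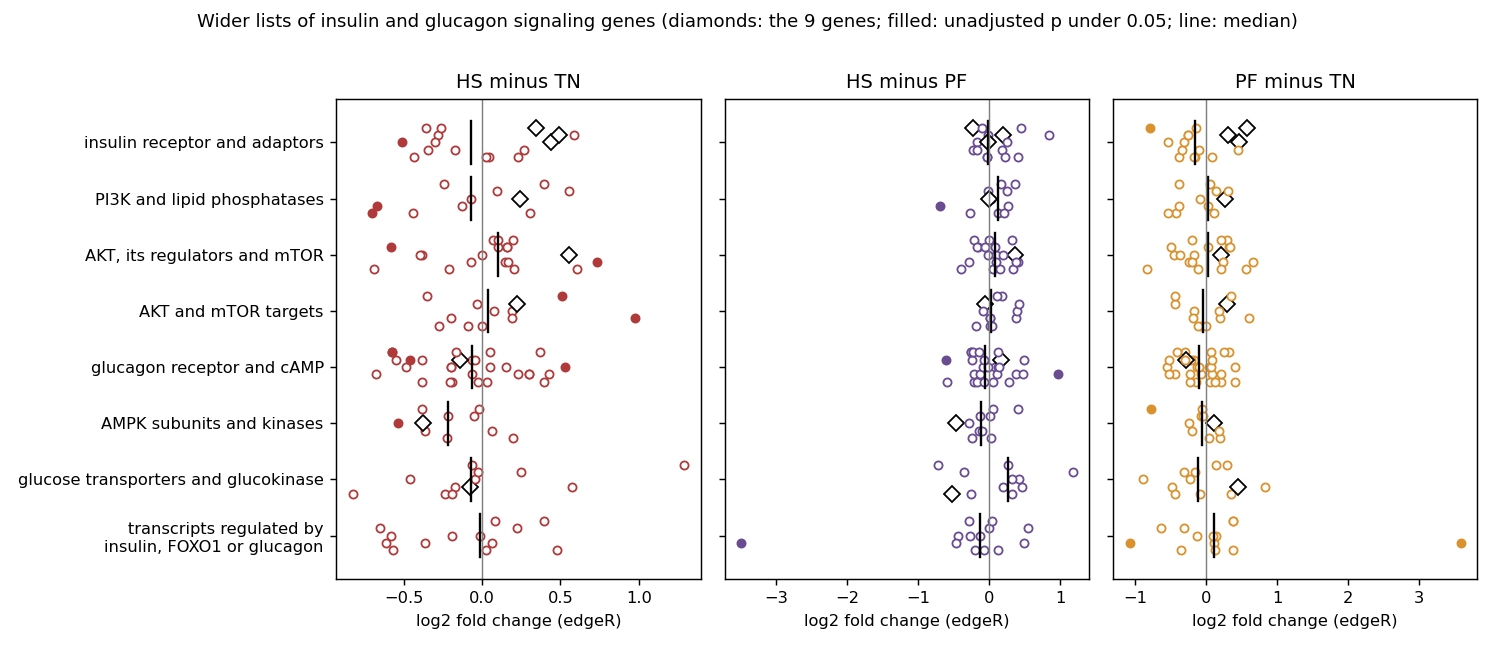
Log2 fold changes (edgeR) of the tested genes of each pathway list in HS vs. TN, HS vs. PF and PF vs. TN, with a point per gene and a line at the median of the list. Diamonds are the 9 members, filled points have an unadjusted p under 0.05, and the horizontal axes differ between panels. In HS vs. TN the AMPK list has its median at -0.22, and the point farthest from 0 in the other panels is *FGF21* (-3.49 and 3.59).

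The genes whose levels followed each member most closely over the 9 cows were named by Pearson's r of log2 CPM among 15073 genes, as a description over cows whose libraries also differ in depth and cell content. *INSR* was followed by *TRIM44*, *CD2BP2* and *LOC515736* (r = 0.91, 0.90 and 0.90). For *IRS1* the genes were *RNF130*, *ATP5MC1* and *EMC3* (r = 0.99 each), and for *IRS2* *LOC112441505*, *CMTM8* and *C2* (r = 0.97, 0.97 and 0.96). Both adaptors have 1 far lower cow, TN replicate 1, which weighs on these values. Over all genes named here Spearman's rho, a correlation of ranks, ran from 0.72 (*CMTM8* with *IRS2*) to 0.98. The closest of 15073 genes over 9 cows have a high r by selection. *PIK3R1* was followed by *SMAD9*, *LOC101903068* and *MIER3* (r = 0.93, 0.91 and 0.90). *AKT2* was followed by *DYNLRB2*, *ARF5* and *PDE4DIP* (r = 0.95, 0.93 and 0.92). *FOXO1* had *TCAF2*, *SP3* and *RANBP2* (r = 0.95 each), *GCGR* had *TTC17*, *ADGB* and *HMGN3* (r = 0.91, 0.89 and 0.88), and *SLC2A2* had *POC1B*, *MED10* and *SDHAF4* (r = 0.95, 0.95 and 0.94). *PRKAA1* was followed by *PUM2*, *CCDC88A* and *TMEM170B* (r = 0.98, 0.97 and 0.97). No member was among the 3 closest genes of another. With 3 genes picked out of 15073 this is likely for any 9 genes, so it does not show whether the members vary together.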

How the data were processed

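Liver biopsies of 9 cows (3 TN, 3 PF, 3 HS) gave 9 libraries, grouped by their labels. The authors deposited raw read counts per gene. Per their notes, reads were cleaned with fastp (0.23.2), aligned to ARS-UCD1.2 with STAR (2.7.9a) and counted with featureCounts (2.0.3). The annotation release and the strand and multi-mapping settings are not given in the sources used here, so overlapping or near-identical genes are uncertain. All columns were mapped to a cow.

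Pairs of groups were compared in edgeR (version 4.0.16, R 4.3.3) by its quasi-likelihood F test on the 6 libraries concerned, after filterByExpr and TMM. The FDR is the p-value adjusted over all genes tested (Benjamini-Hochberg). The SE was worked back from that fit, as the absolute log2 fold change divided by the square root of the F statistic. The 95% intervals are the log2 fold change plus or minus that SE times a quantile of the t distribution. Levels are TMM CPM of the 9 libraries, with an offset of 0.5 on the log2 scale. Ratios used counts plus 0.5 and exact permutation tests. The alternatives were DESeq2 1.42.0, RLE size factors, other filters, all 9 libraries in 1 fit, a replicate block, an FDR under 0.05 and each cow left out. Fits and levels by library totals were added after the data were seen. The fit was tested on simulated counts with planted changes larger than those of any member, which does not measure the power for changes of the members' size.

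The 9 members, the lists and the tests were chosen with earlier results of these data known. Named outside the members were, in each comparison, the 5 pathway genes with the smallest p and any called, *INS*, *GCG*, the second gene of each ratio and, for each member, the 3 genes with the highest r. Marker genes of cell types, *PRKAB2* and 6 transcripts in the closing section are named outside this rule. RefSeq of ARS-UCD2.0, a later assembly, served only to match symbols and overlapping genes, so no positions or sequences are printed.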

Additional observations from a re-analysis of the deposited data

How the results depend on the processing

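Across the 16 fits of each comparison 0 of 9 members were DEGs, at most 1 of 9 had an unadjusted p under 0.05, and a member's FDR was never below 0.415 in HS vs. TN, 0.749 in HS vs. PF and 0.463 in PF vs. TN. The counts of DEGs over all genes did depend on the setting, and the cause was not tested. In HS vs. TN (13) they were 270 with DESeq2, 124 without a filter on low counts, 4 with all 9 libraries in 1 fit, 0 at an FDR under 0.05, 22 with library totals, 7 with library totals without mitochondrial genes, and 0 to 39 as each cow was left out. In HS vs. PF (4) they were 122, 98 without a filter, 8 with RLE size factors, 8 with mitochondrial genes left out of library sizes, 17 and 15 with the 2 kinds of totals, and 5 to 10. In PF vs. TN (0) they were 91, 136 without a filter, 1 with at least 10 counts in every library, and 0 to 14. Without a filter 1 pathway gene was called in HS vs. PF and 1 in PF vs. TN, *FGF21* in both.

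The labels do not say whether replicate numbers pair the cows. The paper describes the intake of PF cows as matched to an HS counterpart, without naming which. Deviations of same-numbered cows correlated at -0.22 to 0.24, and 4 of 9 libraries correlated best with their own number. With so few cows in a group these values do not decide whether cows were paired. A replicate block gave 33 DEGs in HS vs. TN and 1 in PF vs. TN, and turned *PIK3R1* in HS vs. PF to 0.0038.

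Some log2 fold changes changed sign, among them *IRS2* in HS vs. TN (0.34) and *PIK3R1*, *AKT2* and *FOXO1* in PF vs. TN (0.27, 0.21 and 0.29). With library totals, *INSR*, *PIK3R1* and *FOXO1* in HS vs. PF were 0.0184, 0.0473 and 0.0199, and *PRKAA1* in PF vs. TN was -0.0504. With totals without mitochondrial genes, *PIK3R1* was -0.11 in HS vs. TN, 0.0130 in HS vs. PF and -0.12 in PF vs. TN, *FOXO1* was -0.0375 in HS vs. TN and -0.0245 in PF vs. TN, and in PF vs. TN *AKT2* was -0.15 and *PRKAA1* -0.24. As each cow was left out, the ranges in HS vs. TN were -0.10 to 0.73 for *IRS2*, -0.23 to 0.0206 for *GCGR* and -0.23 to 0.13 for *SLC2A2*. In HS vs. PF they were -0.24 to 0.13 for *INSR*, -0.0248 to 0.31 for *IRS1*, -0.0880 to 0.16 for *PIK3R1* and -0.20 to 0.18 for *FOXO1*, and in PF vs. TN -0.18 to 0.29 for *PRKAA1*. Differences of log2 ratios ranged from -0.33 to 0.36 for *IRS2* to *IRS1* and -0.0110 to 0.69 for *AKT2* to *AKT1* in HS vs. TN, and from -0.0235 to 0.34 for *GCGR* to *INSR* and -0.34 to 0.36 for *AKT2* to *AKT1* in HS vs. PF. Which share of the spread between cows comes from depth was not tested.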

Other observations

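Of the 13 transcripts regulated by insulin, FOXO1 or glucagon, 6 had a higher and 7 a lower mean in HS than in TN, with a median log2 fold change of -0.02 and 0 DEGs. The genes named here were chosen after their values were seen. *PCK1*, the cytosolic entry enzyme of gluconeogenesis, was at 1070.2, 1243 and 1320.5 CPM in TN, at 1011, 1142 and 1785 CPM in PF, and at 692, 1236 and 926 CPM in HS cows. *G6PC*, which releases free glucose, was at 303, 471 and 369 CPM in TN, at 368, 264 and 409.8 CPM in PF, and at 138, 253 and 381 CPM in HS cows. *IGFBP1*, a secreted binding protein that FOXO1 induces, was at 121, 555 and 393 CPM in TN, at 164, 314 and 209 CPM in PF, and at 72.5, 205 and 408 CPM in HS cows. HS replicate 1 was the lowest cow for *PCK1*, *G6PC* and *IGFBP1*, and the groups overlapped, but it was the highest cow for *PPARGC1A*, a coactivator of gluconeogenic genes, at 34.0 CPM. In HS vs. TN the log2 fold changes were -0.36 for *PCK1* (edgeR FDR = 0.747), -0.58 for *G6PC* (FDR = 0.636) and -0.65 for *IGFBP1* (FDR = 0.740), while they were 0.48 for *CITED2* (FDR = 0.577), 0.40 for *KLF15* (FDR = 0.632) and 0.22 for *PPARGC1A* (FDR = 0.771).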
